A study of Mus musculus with 2 samples.

Results

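Il7r, Ikzf1, Ikzf2, Satb1, Rag1, Rag2, Dntt, Ccr9 and Tcf3 belong to the programme with which multipotent blood progenitors begin to turn towards the lymphoid lineages. They were followed on 2 one-colour Agilent arrays, 1 from mice treated with decitabine (DAC) and 1 from mice given phosphate-buffered saline (PBS). A probe was taken if the gene name in the scanner output, or the gene of its transcript accession, was one of the 9. This gave 16 probes of the 55680 on the array, for 9 of 34786 genes or transcripts. Every probe is described on both arrays, including those that gave no usable signal.

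Both arrays carried RNA from bone marrow LSK cells (Lineage-Sca-1+c-Kit+), the sorted fraction that holds the haematopoietic stem cells and the most immature progenitors. The strain was C57BL/6, and the genotype of the cells, which came from mice with a transplanted myelodysplastic syndrome (MDS), was Tet2KD/KD Ezh2Δ/Δ. Both alleles were shared by the groups, so neither array was of cells with intact Tet2 and Ezh2. In the DAC group the secondary recipients had been transplanted 10 weeks and treated 7 weeks before the sort, with DAC, a nucleoside analogue that enters DNA and traps DNA methyltransferases. In the PBS group the secondary recipients were studied at the same times, with PBS in place of DAC. There was 1 array per group, both labelled as replicate 1. The sources used here do not give the number and age of the mice behind each array, the dose, or whether surviving host cells were kept out of the sort. With 1 array on each side no difference has a replicate check, so there is no test and no p-value, and genes are described by whether they passed 2-fold.

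Lymphoid priming is the low-level switching on of lymphoid genes in progenitors that can still make myeloid cells. The interleukin-7 receptor carries the survival signal on which mouse B and T cell precursors depend, and the Ikaros zinc-finger proteins, the E protein E2A (encoded by Tcf3) and Satb1 act upstream as regulators of chromatin and transcription. Rag1 and Rag2 cut DNA for V(D)J recombination, terminal transferase (encoded by Dntt) adds bases at the joins, and Ccr9 is the receptor for the chemokine Ccl25, through which progenitors reach the thymus and the gut.

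The value of a probe is the scanner software's processed intensity, a brightness in arbitrary units from which local background has been subtracted. Its error is the software's own estimate for the spot, which covers the array and not the animals. A probe was measured if the software called it well above background on both arrays. For differences, each array was put on the log2 scale and set to 0 at its own 75th percentile over the measured probes, which was 813 with DAC and 618 with PBS, as values of the DAC and the PBS array are given from here on. That step took 0.40 off every log2 ratio of DAC to PBS, a factor of 1.32. Where a gene had several probes, the brightest over both arrays stood for it, and the gene counted as measured only if that probe was measured. The SD of a log2 difference between repeated spots of 1 probe was 0.26 for dim, 0.14 for middling and 0.086 for bright probes, where the measured genes or probes were split by signal into 3 classes of equal size.

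The array read the genes at the following places, given on the mouse build mm9 with the base of the transcript at which each probe starts. The sources used here do not say which of them lie in coding sequence and which in untranslated parts. The single Il7r probe covered chr15:9435976-9436035 on the minus strand. The 3 Ikzf1 probes covered chr11:11661344-11661403, chr11:11669493-11669552 and chr11:11672828-11672887 on the plus strand. The 2 Ikzf2 probes covered chr1:69584008-69584067 and chr1:69577853-69577912 on the minus strand, and the Satb1 probe chr17:51879137-51879196 on the minus strand. The 2 Tcf3 probes covered chr10:79875963-79876022 and chr10:79872639-79872698 on the minus strand. Rag1 and Rag2 are neighbours read from opposite strands. The Rag1 probes covered chr2:101481051-101481110 and chr2:101478813-101478872 on the minus strand, and the Rag2 probes chr2:101470723-101470782 and chr2:101472445-101472504 on the plus strand, so the nearest probes of the pair were 6309 bases apart. The Dntt probe covered chr19:41133936-41133995 on the plus strand. The 2 Ccr9 probes covered chr9:123690334-123690393 and chr9:123680935-123680994 on the plus strand.

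The first 30 of the 60 bases of the probes on which the results turn are shown, 5′ to 3′, because probes of Ikzf1, Rag1, Tcf3 and Ccr9 gave different values for 1 gene. The capitals in the first Ikzf1 probe mark GGTAAG, letters like those with which many introns begin.
Il7r, base 3088: atcaatcaactatgtttggatccagggaat
Ikzf1, base 827: cagaaatttcttGGTAAGagttaaatgttt
Ikzf1, base 1726: ttgagtgtaacatgtgtggttatcacagcc
Ikzf1, base 5061: aggaagctcatgtgcatctggtgctatggc
Satb1, base 2533: caccggtatttcctaacaacatgagaagtc
Tcf3, base 1898: atgaggaaatcgcatcagtagccgacgccg
Tcf3, base 2516: cagaaaagttccttcctctcggttaaccag
Rag1, base 3967: ggtgtcataaatttttcaataatgaagtta
Rag1, base 6205: agttgtttgatgcatgtgtatgccattaga
Rag2, base 1430: aagatgacgagtctgtaaccggctactgga
Rag2, base 3152: cttaaagacagttgtcatctctggaaatag
Dntt, base 2050: aagcgcatcaatgcccacctgactcctgtg
Ccr9, base 2082: caggcaagaggcacttgctgcaggttctcc
Ccr9, base 4650: ctcagatcctctttaagagtgttatatagt

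Of the 9 genes, 8 were measured, and 3 of these 8 were at least 2-fold higher with DAC than with PBS: Ikzf1, Il7r and Satb1. Among all 18211 measured genes 10.0% were at least 2-fold higher. None of the 8 was at least 2-fold lower, against 6.84% of all measured genes, and 5 lay between. Ccr9, the remaining gene, was well above background with DAC only. The differences of the 8 ran between 0.04 and 1.65 with a median of 0.66, beside a median of 0.02 and an SD of 0.81 over all measured genes. All 8 differences lay above 0, as did 51.4% of all measured genes, but the 2 smallest, of Ikzf2 and Tcf3, lay below 0 in 3 of 7 other ways of scaling or background correction. With the mean over a gene's measured probes 3 genes again passed 2-fold, but they were Rag1 at 1.58, Il7r and Satb1: Ikzf1 stood at 0.39, and Ikzf2 at −0.06. Under those 7 settings the members' median stood 0.54 to 0.73 above that of all genes, against 0.64 as reported. The 5 other scalings alone shifted the median of all genes by −0.20 (75th percentile over all probes), −0.16 (median), −0.11 (quantile), −0.07 (cyclic loess) and −0.20 (the deposited series matrix).

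**Figure D1:**
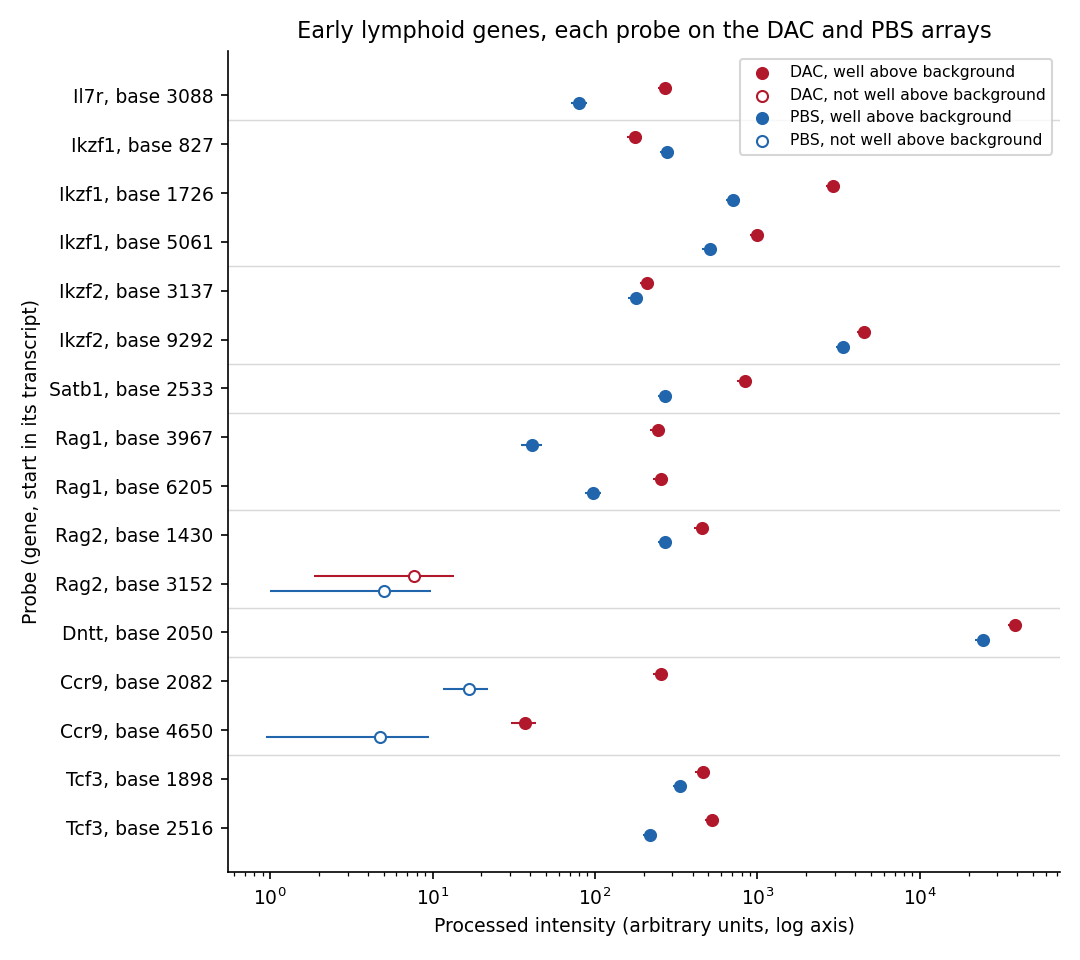
Processed intensity (arbitrary units, log axis) of the 16 probes of the 9 genes with DAC (red) and with PBS (blue), 1 line per probe, labelled by gene and by the base of the transcript where the probe starts. Bars are the scanner software's own error of the spot, shortened on the low side where they come near 0, and open points were not well above background. The DAC point lies to the right of the PBS point for 12 of the 13 measured probes, the exception being the Ikzf1 probe at base 827. These intensities are not scaled, and the DAC array was the brighter: scaling took a factor of 1.32 off every ratio of DAC to PBS. After scaling, the difference was above 0 for 11 of the 13.

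Il7r encodes the alpha chain of the receptor for interleukin-7, which is shared with the receptor for the cytokine Tslp. Its probe read 271 ± 27.5 with DAC and 79.8 ± 9.06 with PBS. After scaling, Il7r was 2.58-fold higher with DAC, a log2 difference of 1.37 ± 0.22, where ± is the error carried over from both spots. Of all measured genes 5.44% had a higher difference. Il7r lies in the middle class of signal, in which 13.2% of genes were at least 2-fold higher. The call depended on background subtraction: the difference was 0.86 after normexp correction and 0.87 with none, and 1.15 to 1.21 under the 5 other scalings.

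The Ikaros family was read by 5 probes. Ikzf1 encodes Ikaros itself, a zinc-finger regulator without which mice lack B cells. Its brightest probe, at base 1726, read 2942 ± 294 with DAC and 712 ± 71.4 with PBS. This was 3.14-fold higher after scaling, a log2 difference of 1.65 ± 0.20, and 3.37% of measured genes had a higher one. Ikzf1 lies in the bright class, where 2.65% of genes were at least 2-fold higher and the SD of the differences was 0.52. The probe at base 5061 of the same transcript read 997 ± 99.8 with DAC and 508 ± 51.0 with PBS, a difference of 0.58 ± 0.20. The probe at base 827 ran the other way, at 177 ± 18.4 with DAC and 279 ± 28.2 with PBS. Its difference was −1.05 ± 0.21. The 3 Ikzf1 probes thus spanned 2.70 on the log2 scale, with 1 past 2-fold in each direction.

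Probes of a gene often disagree on this array. Of the 1400 genes with at least 3 measured probes, 5.64% had a probe past 2-fold in each direction, the median span was 1.05, and 9.07% had a span as wide as that of Ikzf1. The probes at bases 1726 and 5061 list RefSeq transcripts of Ikzf1. The probe at base 827 lists 4 accessions, of which 0 are from RefSeq, and it alone of the 3 holds GGTAAG, as do 0.724% of all probes on the array. That stretch was picked out after the sequence had been seen, and nothing about the RNA bound there was tested. The order of the 3 probes was the same under all 7 other scaling and background settings, with 1.45 to 1.71 at base 1726, 0.37 to 0.58 at base 5061 and −1.25 to −0.88 at base 827.

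Ikzf2 encodes Helios, a relative of Ikaros best known from regulatory T cells. Its probe at base 9292 read 4568 ± 457 with DAC and 3367 ± 337 with PBS, a difference of 0.04 ± 0.20. The probe at base 3137 read 210 ± 21.6 with DAC and 179 ± 18.5 with PBS, a difference of −0.17 ± 0.21. Both differences were smaller than their errors. Of all measured genes 48.5% had a higher difference than Ikzf2.

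Satb1 encodes a protein that folds chromatin into loops and is needed for T cell development. Its probe read 837 ± 83.8 with DAC and 270.4 ± 27.4 with PBS. This was 2.35-fold higher with DAC, a difference of 1.23 ± 0.21, and 6.90% of measured genes had a higher one. Satb1 lies in the middle class of signal. It stayed past 2-fold under all 7 other scaling and background settings, with differences of 1.03 to 1.19.

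Tcf3 encodes the E proteins E12 and E47, which pair with tissue-specific partners to start the B cell programme. The 2 probes are assigned to different RefSeq transcripts, and each lists 4 RefSeq transcripts. At base 1898 the probe read 461 ± 46.4 with DAC and 335 ± 33.9 with PBS, a difference of 0.06 ± 0.21. At base 2516 the probe read 528 ± 53.0 with DAC and 219 ± 22.3 with PBS, a difference of 0.87 ± 0.21 or 1.83-fold. Neither passed 2-fold, and the first of these, which was the brighter over both arrays, stood for the gene.

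**Figure D2:**
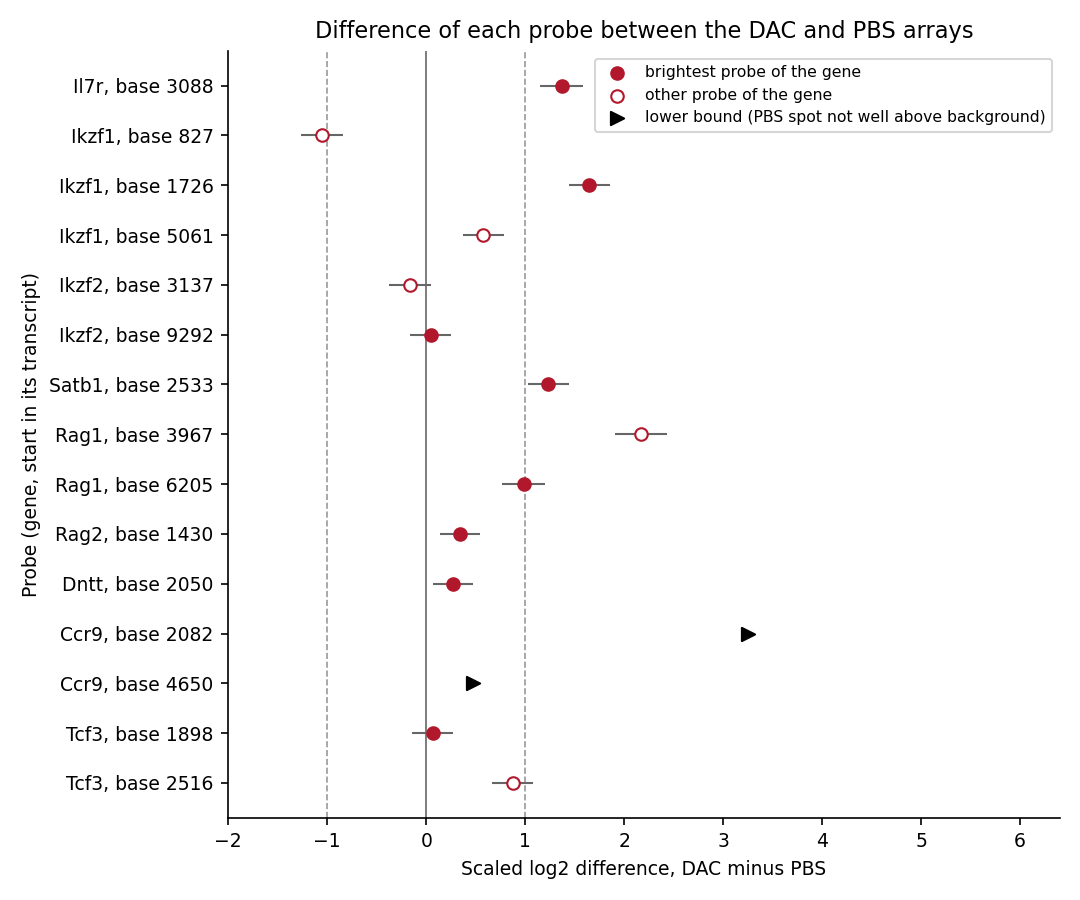
Scaled log2 difference, DAC minus PBS, of each probe with a usable signal, labelled by gene and by the base of the transcript where the probe starts. Filled points are the probe that stood for the gene, open points its other probes, bars the error carried over from the scanner software's error of both spots, dashed lines 2-fold, and black triangles lower bounds for Ccr9. Of 13 measured probes 4 lie at or beyond 2-fold higher and 1, of Ikzf1, beyond 2-fold lower.

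Rag1 encodes the larger subunit of the V(D)J recombinase, which carries the active site. Each of its 2 probes was printed at 2 spots. At base 6205 the spots read 253 and 257 with DAC, against 94.8 and 101 with PBS. The difference was 0.98 ± 0.22, or 1.98-fold, just under the threshold, and 10.2% of measured genes had a higher one. At base 3967 the spots read 243 and 245 with DAC, against 40.4 and 41.9 with PBS. The difference there was 2.17 ± 0.26, or 4.50-fold. The repeated spots of a probe lay close together, with SDs on the log2 scale of 0.006 to 0.017 with DAC and 0.037 to 0.066 with PBS, so the gap between the 2 probes was wider than the spread of the spots. Under the 7 other scaling and background settings base 3967 gave 1.13 to 2.01, and base 6205 gave 0.62 to 0.83. The gap narrowed with the background setting, which the spread of the spots does not cover. With normexp base 3967 gave 1.13 and base 6205 gave 0.64, and without subtraction they gave 1.14 and 0.62.

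Rag2 encodes the partner subunit, which binds a histone mark of active promoters. Its probe at base 1430 read 453 ± 45.6 with DAC and 272 ± 27.5 with PBS. This was a difference of 0.34 ± 0.21 or 1.27-fold, and 30.3% of measured genes had a higher one. The probe at base 3152 was printed at 10 spots and was well above background on neither array. Its spots read 5.004 at the lowest, 5.88 at the median and 17.7 at the highest with DAC, against 4.42, 4.69 and 6.38 over the 9 spots kept with PBS. With DAC 5 of its spots, and with PBS 6, held the software's substitute value for spots not above background, so no fold is given.

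Dntt encodes terminal deoxynucleotidyl transferase, which adds bases without a template and is made early in lymphoid-primed progenitors. Its probe read 38742 ± 3874 with DAC and 24440 ± 2444 with PBS. Most of that gap was taken up by the scaling, which left a difference of 0.27 ± 0.20 or 1.20-fold. Of all measured genes 34.5% had a higher difference. Dntt lies in the bright class and moved with the choice of scaling, at 0.07 with the 75th percentile over all probes and 0.55 with cyclic loess. It was above 0 under each of the 7 settings and past 2-fold under none.

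Over the 13 measured probes of the 8 genes, 4 were at least 2-fold higher with DAC, against 11.5% of all measured probes, and 1 was at least 2-fold lower, against 7.13%. The 4 were the Il7r and Satb1 probes, the Ikzf1 probe at base 1726 and the Rag1 probe at base 3967. Of the 13 differences 11 lay above 0. The brighter probes of Ikzf2 and Tcf3, which are among the 11, each fell below 0 under 3 of the 7 other scaling or background settings. For comparison, 51.4% of all measured genes lay above 0, a share of genes and not of probes.

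Ccr9 is the one gene of the 9 called well above background with DAC alone. At base 2082 its probe read 255 ± 26.0 with DAC, while with PBS it was not well above background at 16.7 ± 5.14. The PBS spot did pass the software's less strict call of a positive and significant signal. Set against the dimmest signal called well above background with PBS, an intensity of 20.3, this makes Ccr9 at least 9.54-fold higher with DAC in background-subtracted intensity. Before subtraction the spot read 308 with DAC and 83.3 with PBS, over local backgrounds of 37 and 38. The size of the bound thus depends on background subtraction, and it was not recomputed under other settings. The probe at base 4650, a transcript that the array's design names Ccr9, read 37.1 ± 6.59 with DAC and 4.72 ± 4.73 with PBS, where it was again not well above background. Its bound was at least 1.39-fold higher, since the signal with DAC was itself close to that limit. Both probes were thus called well above background with DAC only. Among the 4354 genes found by some probe on 1 array only, 29.4% had a bound of at least 2-fold higher with DAC.

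**Figure D3:**
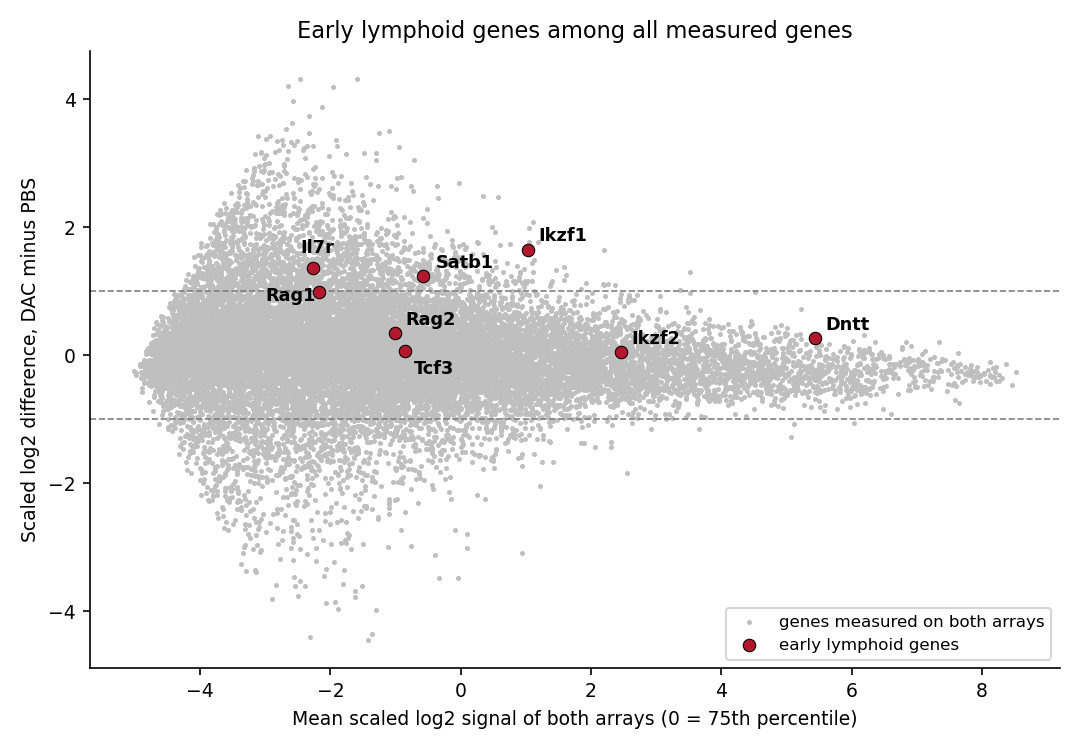
Scaled log2 difference, DAC minus PBS, against the mean scaled log2 signal of both arrays (0 is the 75th percentile) for the 18211 measured genes (grey) and the 8 measured early lymphoid genes (red, named). Dashed lines mark 2-fold. Ikzf1 at 1.65 lies at a signal where few genes pass 2-fold, Il7r and Satb1 lie at signals where more do, and Ikzf2 and Dntt lie near the middle of the brightest genes.

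The 250 bases before the start of a gene were read for 8 of the 9 genes from RefSeq, on the build GRCm38.p6. They are shown for Ccr9, Il7r, Ikzf1 and Satb1, the genes furthest apart between the arrays, with CpG, the site of DNA methylation in mammals, in capitals. Methylation was not measured here. Each is written 5′ to 3′ on the strand of its gene.
Ccr9, chr9:123766961-123767210, plus strand: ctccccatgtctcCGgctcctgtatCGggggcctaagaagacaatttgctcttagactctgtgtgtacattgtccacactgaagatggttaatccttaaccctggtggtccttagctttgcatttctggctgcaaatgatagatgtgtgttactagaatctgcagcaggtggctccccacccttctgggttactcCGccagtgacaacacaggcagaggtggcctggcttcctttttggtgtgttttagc
Il7r, chr15:9529877-9530126, minus strand: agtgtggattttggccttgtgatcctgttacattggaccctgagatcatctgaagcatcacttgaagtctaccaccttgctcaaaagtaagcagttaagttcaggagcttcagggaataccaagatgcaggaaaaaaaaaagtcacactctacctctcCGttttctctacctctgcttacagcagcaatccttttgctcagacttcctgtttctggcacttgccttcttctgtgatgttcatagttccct
Ikzf1, chr11:11685675-11685924, plus strand: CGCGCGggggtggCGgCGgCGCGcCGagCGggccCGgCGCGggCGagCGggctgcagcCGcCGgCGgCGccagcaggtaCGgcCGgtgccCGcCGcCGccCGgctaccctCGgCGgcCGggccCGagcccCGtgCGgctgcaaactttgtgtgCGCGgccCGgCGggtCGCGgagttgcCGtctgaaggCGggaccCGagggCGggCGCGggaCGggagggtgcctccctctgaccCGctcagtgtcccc
Satb1, chr17:51832648-51832897, minus strand: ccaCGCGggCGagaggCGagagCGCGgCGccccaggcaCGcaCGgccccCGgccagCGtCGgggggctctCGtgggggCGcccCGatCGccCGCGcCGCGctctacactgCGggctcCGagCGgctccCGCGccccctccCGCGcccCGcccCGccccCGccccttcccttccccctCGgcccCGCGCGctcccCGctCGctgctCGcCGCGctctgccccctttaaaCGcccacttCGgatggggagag

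These 4 windows differ widely. The Ccr9 window holds 3 CpG and the Il7r window 1, while the Ikzf1 window holds 44 and the Satb1 window 41, and the median over all 32841 promoters of the table was 6. RefSeq lists another start of Ikzf1 with 1 CpG, and 5 starts of Satb1 with 3 to 41. Windows with at least as many CpG made up 71.0% of all promoters for Ccr9, 92.1% for Il7r, 0.539% for Ikzf1 and 1.09% for Satb1. Among the genes under 2-fold, the windows of Rag1 and Rag2 held 3 CpG each, that of Dntt 2 and that of Tcf3 18. The E protein motif CAGGTG, searched on both strands, occurred once in the Ccr9 window, once in that of Rag1 and in 1 of the 5 Satb1 windows, against 17.2% of all promoters. The Ikaros core TGGGAA, also searched on both strands, occurred once in the Rag1 window and in 1 Satb1 window, against 21.6% of all promoters. A match describes these letters only.

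The 2 genes that define the gate were well above background on both arrays. Kit, which encodes c-Kit, read 5080 with DAC and 3550 with PBS, a difference of 0.12. Ly6a, which encodes Sca-1, read 1295 with DAC and 939 with PBS, a difference of 0.07. Cd34 had a difference of −0.30 and Ptprc 0.73. Flt3, a receptor of lymphoid-primed progenitors, had −0.24 on its brightest probe and −1.36 on the lowest of its 3 probes, which was past 2-fold lower with DAC. Procr, a surface marker of haematopoietic stem cells, was at least 2-fold higher with DAC at 1.65, and Slamf1, another such marker, was found with neither.

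Markers of lymphoid cells further along than the gate were present on both arrays, and values are given because several of the 9 genes are also used by such cells. Of 9 B cell markers on the array 7 were measured, 0 of them past 2-fold, with a median of 0.21 and a summed level, in units of each array's 75th percentile, of 18.9 with DAC and 17.1 with PBS; Ms4a1, a marker of mature B cells, was found with neither, and Blk with PBS only. Of 10 T cell markers 5 were measured, with a median of 0.46 and a summed level of 2.48 with DAC and 1.70 with PBS. Cd247 was at least 2-fold higher at 1.83, Cd3d was found with PBS only and was at least 4.51-fold lower with DAC, and Cd3g, Cd8a, Cd8b1 and Themis were found with neither. Of 10 markers of natural killer and innate lymphoid cells 2 were measured, and 5 were found with DAC only. These were Rora, at least 3.37-fold higher, and Klrb1c, Klrd1, Gzma and Il1rl1, with bounds of 1.05-fold to 1.99-fold higher, while Ncr1 was found with PBS only and was at least 1.74-fold lower with DAC. That list summed to 8.44 with DAC and 8.38 with PBS, of which Nkg7 alone made up 7.34 with DAC and 7.55 with PBS. On the whole array 56.8% of probes were well above background with DAC and 48.5% with PBS. Calls with DAC only were thus the more common kind. Among genes found by some probe on 1 array only, 1279 of 4354 had a bound of at least 2-fold higher with DAC. For 571 it was at least 2-fold lower.

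Of 10 markers of plasmacytoid dendritic cells, which share Ccr9 and other genes with lymphoid progenitors, 8 were measured, with a median of 0.28 and a summed level of 10.4 with DAC and 10.1 with PBS. Siglech alone made up 4.88 of that sum with DAC and 6.49 with PBS, a difference of −0.41, while 7 of the 8 lay above 0. Cox6a2 was the 1 measured marker past 2-fold by its brightest probe, at 3.19, and Irf7 was found with DAC only, at least 9.33-fold higher. Ccdc50 stood at 0.24 by its brightest probe, with 1.32 on another. Myeloid markers summed to 56.9 with DAC and 80.4 with PBS, with 0 of 6 measured past 2-fold by their brightest probes and Adgre1 with DAC only, at least 4.97-fold higher. Itgam alone made up 49.7 of that sum with DAC and 72.8 with PBS, and another of its 3 probes gave a difference of 1.58. Csf1r stood at 0.02 by its brightest probe, with 2.27 on another. The median of the 6 measured myeloid markers was −0.40, with 2 above 0. Erythroid markers summed to 3.57 with DAC and 5.10 with PBS, with Gata1 at −2.02 as 1 of 7 past 2-fold by their brightest probes and Epor with DAC only, at least 2.83-fold higher. Gata1 alone made up 0.37 of that sum with DAC and 1.49 with PBS. The median of the 7 measured erythroid markers was −0.39, with 2 above 0. Tfrc stood at 0.60 by its brightest probe, with −1.11 on another. The part of any of these cells in the differences of the 9 genes was not tested, and in sorted bulk RNA more cells that express a gene and more RNA of it per cell cannot be told apart.

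6 lists of genes that work with the 9 were read beside them. Of 88 genes on these lists 78 were measured, with 13 at least 2-fold higher, 4 at least 2-fold lower and 61 between, and their median difference was 0.15. The shares of all measured genes, 10.0% higher and 6.84% lower, are the level against which these counts stand. That split moves with the scaling: 59.4% of the calls over all genes were on the higher side as reported, against 41.8% with the 75th percentile over all probes, 45.8% with the median, 42.2% with quantile normalization, 45.7% with cyclic loess, 41.9% in the series matrix, 48.9% with normexp and 49.4% without background subtraction. Genes found with DAC only stand against an array on which 56.8% of probes were well above background with DAC and 48.5% with PBS.

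In interleukin-7 receptor signalling, 12 of 15 genes were measured, 2 at least 2-fold higher and 0 lower, with a median of 0.36. The 2 were Cish, a feedback inhibitor and STAT5 target, at 306 with DAC and 40.4 with PBS (difference 2.52), and the kinase gene Pim1, at 845 with DAC and 287 with PBS (1.16). Within 2-fold lay Il2rg at 0.33 and Crlf2 at 0.35, which encode the chains that pair with the Il7r product for interleukin-7 and for Tslp, and the kinase genes Jak1 at 0.36 and Jak3 at −0.46. The second probe of Jak3 gave 0.64. With the 75th percentile over all probes, or in the series matrix, 1 gene of this list was at least 2-fold higher. The ligand genes Il7 and Tslp were found with neither, and Socs1, another feedback inhibitor, was found with DAC only, at least 1.13-fold higher.

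The next list held 16 genes of the Ikaros family, of the NuRD complex, which Ikaros recruits, and the corepressor genes Sin3a and Ctbp1. All were measured, 2 at least 2-fold higher and 0 lower, with a median close to 0. Ikzf4, which encodes Eos, read 550.0 with DAC and 155 with PBS (1.43), and Gatad2b, a NuRD subunit gene, read 366 with DAC and 98.9 with PBS (1.49). Ikzf3, which encodes Aiolos, stood at 0.16, Ikzf5 at −0.36 with −1.04 on its other probe, and the NuRD helicase gene Chd4 at 0.32. Gatad2a stood at 0.89, Mta3 at −0.19 and Rbbp4 at −0.20 by their brightest probes, with 2.12, 1.34 and −1.36 on another. With normexp or without background subtraction, 1 gene of this list was at least 2-fold higher, so the call of Ikzf4 or of Gatad2b depended on that step. With quantile normalization and with cyclic loess the genes at least 2-fold higher numbered 3.

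Of 12 partners and inhibitors of E proteins 9 were measured, with 1 at least 2-fold higher, 1 lower and a median of 0.14. Id1, whose product binds E proteins and keeps them off DNA, read 27.5 with DAC and 90.4 with PBS, a difference of −2.11. The DAC signal of Id1 lay near the dimmest called well above background there, 22.5. Tcf12, which encodes the E protein HEB, read 348 with DAC and 125 with PBS, a difference of 1.08, but its second probe gave −0.35 and none of the 7 other scaling and background settings kept a gene of this list at 2-fold higher. Tcf4 stood at −0.43 and Id3 at 0.53, and Id2 was found with DAC only, at least 1.75-fold higher.

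Of 13 genes that join or repair the breaks made by the recombinase 11 were measured, with 1 at least 2-fold higher, 1 lower and a median of −0.12. Xrcc5, which encodes the Ku80 subunit of the end-binding Ku dimer, read 114 with DAC and 25.5 with PBS (1.77), and Xrcc6, the gene of its partner Ku70, stood at 0.73. The PBS signal of Xrcc5 lay near the dimmest called well above background there, 20.3. Atm, a kinase gene of the break response, read 245 with DAC and 418 with PBS (−1.17), with 2.56 on its other probe. With normexp or without background subtraction 0 genes of this list were past 2-fold in either direction, and 2 were at least 2-fold lower with the 75th percentile over all probes, quantile normalization, cyclic loess and the series matrix. Lig4, the ligase gene, was found with DAC only, at least 2.13-fold higher. Prkdc at 0.22, Dclre1c, the gene of the hairpin opener Artemis, at −0.84, and Hmgb1, a cofactor of the recombinase, at −0.30 lay between.

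Of 14 receptor and homing genes of lymphoid-primed progenitors 13 were measured, 2 at least 2-fold higher and 0 lower, with a median of −0.10. Notch1, the receptor that starts T cell commitment, read 424 with DAC and 69.4 with PBS (2.21, and 1.06 on its other probe). Itga4, an integrin subunit gene, read 714 with DAC and 251 with PBS (1.11, and 1.67 on its other probe). Under 5 of the 7 other settings 1 gene of this list was at least 2-fold higher. Cxcr4 stood at −0.31, and Ccl25, the gene of the Ccr9 ligand, at 0.17. Ccr7, which guides progenitors to the thymus together with Ccr9, was found with DAC only, at least 1.62-fold higher.

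Lymphoid transcription factors were, of the 6 lists, the one with the most genes past 2-fold: of 18 genes 17 were measured, 5 at least 2-fold higher, 2 at least 2-fold lower and 10 between, with a median of 0.69. Tcf7, a Notch target gene of early T cells, read 156 with DAC and 24.6 with PBS (2.27). Of its 2 probes 1 was measured, and its PBS signal lay near the dimmest called well above background there, 20.3. Lef1, a relative of Tcf7, stood at 1.04. Foxo1, whose product activates Il7r and the Rag genes, read 855 with DAC and 248 with PBS (1.39), and Runx3 stood at 1.37. Pax5, the B cell commitment factor gene, read 733 with DAC and 229 with PBS (1.28, and 1.75 on its other probe). Ebf1, which acts just before Pax5 in B cell development, read 95.2 with DAC and 153 with PBS (−1.08), and Gata3, a T cell factor gene, 41.9 with DAC and 77.8 with PBS (−1.29). The list therefore held genes of both lineages on either side of 0, and its calls depended on the setting. The 2 lower calls were lost with normexp or without background subtraction, and the genes at least 2-fold higher numbered 3 under both of these and 4 under each of the 5 other scalings. Spi1 at 0.98 and Bcl11a at 0.84 lay under 2-fold, and Mef2c stood at −0.08. Bcl11b, a gene of T cell commitment, was found with neither.

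**Figure D4:**
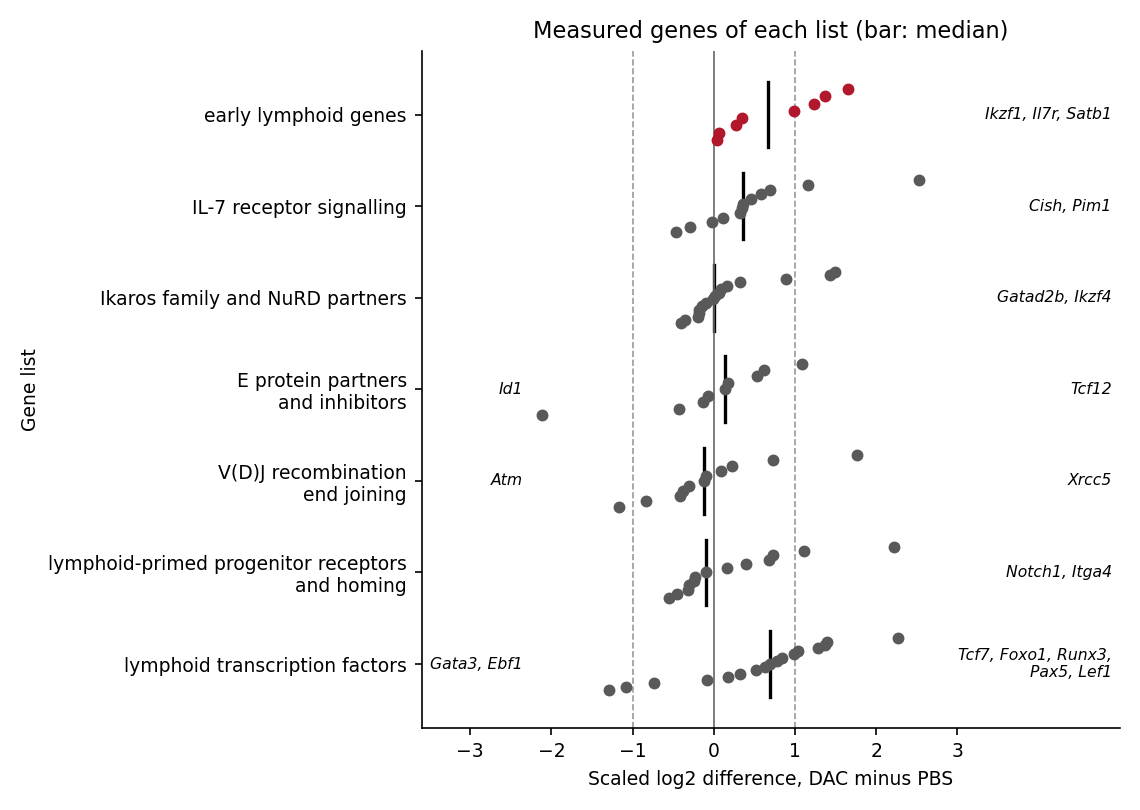
Scaled log2 difference, DAC minus PBS, of each measured gene on 7 lists, 1 point per gene, spread vertically by rank within a list. Vertical bars are list medians (0.66 for the early lymphoid genes, in red, and −0.12 to 0.69 for the others), dashed lines mark 2-fold, and genes past it are named, lower ones on the left and higher ones on the right, in order of size. The early lymphoid genes lie at 0.04 and above, although Ikzf2 and Tcf3 lay below 0 in 3 of 7 other scaling or background settings, and each of the 6 other lists has genes on both sides of 0.

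The plot of settings sets the 13 measured probes side by side under the reported scaling and the 7 alternatives. Ikzf1 at base 1726, Satb1 and Rag1 at base 3967 were at least 2-fold higher under each of them. Il7r was so under 5 of the 7, and Ikzf1 at base 827 was at least 2-fold lower under 5 of the 7. Rag1 at base 6205, the probe that stood for the gene at 1.98-fold, reached 2-fold under none.

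**Figure D5:**
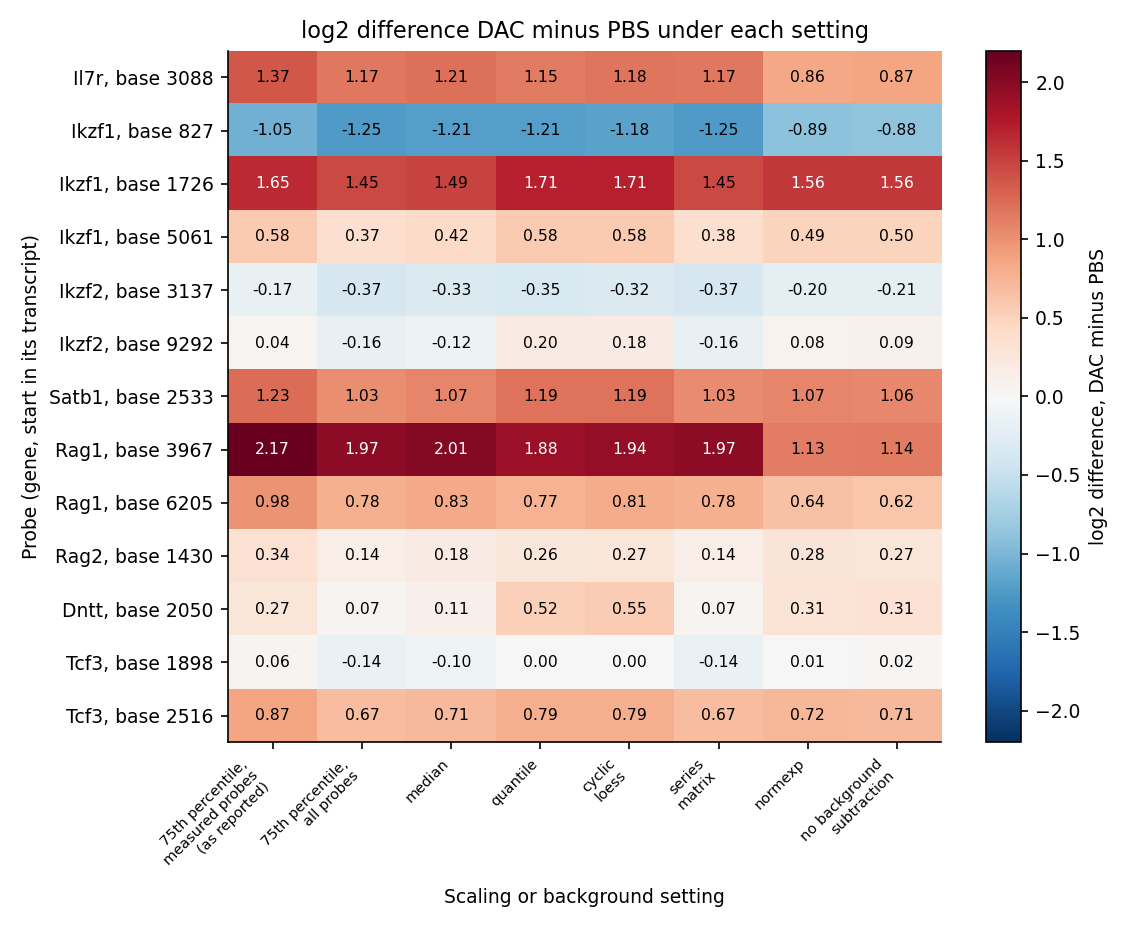
Log2 difference, DAC minus PBS, of each measured probe (rows, by gene and start in the transcript) under the reported scaling (first column) and 7 other scaling or background settings, with the value in each cell and colour running over −2.2 to 2.2. Red cells are higher with DAC and blue cells lower. The rows of Ikzf1 at base 1726, Satb1 and Rag1 at base 3967 stay at or above 1.03 in every column.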

How the data were processed

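Total RNA of sorted LSK cells was extracted with a micro kit, amplified and labelled with Cy3, per the labels' protocols. The deposited scanner files hold the intensity of every spot; per the file headers it came from Agilent Feature Extraction 10.7.3.1 (protocol GE1_107_Sep09, probe positions on mm9), which had subtracted background but not normalized between arrays, and both arrays lay on 1 slide. The authors' deposited series matrix holds log2 values whose column medians are 0. Differences between its columns matched those of the log2 intensity with a slope of 1.00 and an offset of −0.60, while the baseline subtracted from each probe is unknown.

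From these files, outlying spots were left out, the log2 values of a probe's spots were averaged, and each array was scaled by its 75th percentile over the 25404 of 55680 probes well above background on both arrays (45.6%). With DAC 31601 probes passed that call and with PBS 27007; saturated spots numbered 0. A probe well above background on 1 array only has a bound, set against its own signal on the other array or, where higher, the dimmest signal that passed the call there. Genes were named through accessions (26761 probes), symbols (3819) or synonyms (639) of a GRCm38.p6 gene table, and 24461 probes kept the name in the file. Scripts ran in Python 3.11.15 and R 4.3.3 with limma 3.58.1, and were tested on simulated data.

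The 9 genes, the 6 companion lists and the 7 marker lists were chosen with earlier results of these data known. Of the companion lists, genes past 2-fold and up to 4 others nearest in role were named; of the marker lists, the gate genes and those past 2-fold. A result on the gate list is not reported here. Genes named because they were found on 1 array or on neither were picked after their values were seen. Alternatives covered scaling, background correction, the filter on dim probes and the choice of probe. With 1 array per group, the precision of all values is limited by that number.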

Additional observations from a re-analysis of the deposited data

How the results depend on the processing

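With 1 array per group no array could be left out. No paired analysis was possible because each group has 1 array. The members' median difference of 0.66 became 0.98 when the software's positive and significant call chose the probes, 0.98 without a filter on dim probes, both of which add Ccr9, and 0.30 over genes whose signal reached the median, which keeps 6 members. The other 33 recomputed values of the members' counts and median moved by less than the limits set for them: 2 to 4 members were at least 2-fold higher and 0 lower under every setting. The count fell to 2 with normexp or without background subtraction, where Il7r lost its call. It was also 2 among the 6 members whose signal reached the median. When the probe with the smallest difference stood for a gene, the count was 2 because Ikzf1 lost its call. With the mean over a gene's probes the count stayed at 3 while the genes changed: Ikzf1, at 0.39, lost its call and Rag1, at 1.58, gained one. Over all genes, 1824 were at least 2-fold higher and 1245 lower as reported, against 721 and 752 with normexp, 717 and 735 without background subtraction, 3665 and 2196 by the positive and significant call, 5364 and 3038 without a filter, and 479 and 417 where the signal reached the median. Signal over background limits Ccr9 to a bound and leaves 1 Rag2 probe without a fold.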
